A study of Mus musculus with 6 samples.

Results

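Serpins are a family of serine protease inhibitors, and their transcripts were followed here in livers of mice null for the Hippo pathway kinase Mst1. Mice with and without Cre directed at the gene of the related kinase Mst2 were compared. Members were all rows of the deposited expression tables whose symbol gives a serpin clade letter, a number and an optional copy letter, which made 61 of the 22068 gene symbols. The clade letter groups members by sequence, with 24 in clade A, 26 in clade B and 11 in clades C to I. By the labels, 3 control libraries came from mice of genotype Mst1-/-; Mst2fl/fl; alb-Cre-/- and 3 libraries, called dKO, from mice of genotype Mst1-/-; Mst2fl/fl; alb-Cre+/+. All mice were C57BL/6 and aged 6 weeks, and polyadenylated RNA of whole liver was sequenced. The controls were therefore also null for Mst1, and what set dKO mice apart was Cre driven by the albumin promoter, which is active in hepatocytes. Whether each replicate is its own animal is not stated in the labels, so the tests measure the spread among these libraries, which may be technical. In whole tissue, fewer cells of a type and less RNA per cell cannot be told apart.

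A serpin presents a flexible reactive centre loop to a protease as bait. When the protease cuts the loop after the residue called P1, the loop folds into the body of the serpin and the protease is trapped. The P1 residue and its neighbours set which protease is caught. Hepatocytes secrete most serpins of plasma, which restrain neutrophil elastase, thrombin, plasmin and the first complement proteases. Some members inhibit nothing and carry hormones or fold collagen instead, and most of clade B stays inside cells.

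Levels are in RPKM, read counts scaled to transcript length and library size. They are listed library by library in the order of replicates 1, 2 and 3, or as mean ± SD (n = 3 libraries). Depth was estimated from the step between low values, at 16.9 to 24.5 M reads per library. A log2 change is the dKO mean minus the control mean of log2(RPKM + 1), a scale that shrinks the change of genes with low levels. Stk3 and Stk4, the mouse symbols of Mst2 and Mst1, stood at 5.20 to 6.00 and 4.66 to 5.50 RPKM in control and at 4.25 to 5.32 and 4.93 to 5.84 RPKM in dKO libraries (limma adjusted p = 0.424 and 0.487), and a value per gene does not show whether a part of it was deleted. Of 7 hepatocyte markers, 2 were called lower, and their sum was 45424 to 58744 RPKM in control and 39440 to 45891 RPKM in dKO. The 6 tested of 8 cholangiocyte and progenitor markers were all called higher, with sums of 36.9 to 87.0 RPKM in control and 359 to 1011 RPKM in dKO. Of 11 stellate cell and fibroblast markers 1 was called higher, with sums of 182 to 199 and 196 to 337 RPKM. Beside these marker counts, 17.8% of the 11062 genes in the fit rose and 2.17% fell. Median-ratio scaling left 1 hepatocyte marker lower, 5 cholangiocyte and progenitor markers higher and 0 stellate cell and fibroblast markers higher. Under that scaling 7.89% of genes in the fit rose and 5.55% fell. All 6 libraries expressed Xist (55.7 to 93.5 RPKM), and the Y-linked genes stood at or near 0 in all of them. The dKO replicate 3 library stood apart from the other dKO libraries on the first principal component, at 49.0 against 20.3 and 19.2.

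In dKO liver 2 intracellular clade B serpins rose, and 2 antitrypsin copies and the corticosteroid carrier gene fell. Of the 61 members, 17 were at 0 in every library, 17 had a mean below 1 RPKM and 27 were tested. Serpinb6a and Serpinb6b were called higher, and Serpina6, Serpina1c and Serpina1a were called lower, at a limma adjusted p under 0.05. These 5 of 27 members stand beside 19.9% of all tested genes called in either direction. In single directions 2 of 27 members rose, where 17.8% of the 11062 tested genes did, and 3 of 27 fell, where 2.17% of tested genes did. Serpina1a and Serpina1c can share reads. With the Serpina1 and Serpina3 copies each summed, 1 of 17 fell, where 2.16% of tested genes did. The median log2 change of the tested members was -0.30, beside 0.23 for all tested genes. After median-ratio scaling, which moved the median of all tested genes by 0.24 to -0.01, 2 members rose and 2 fell, where 7.89% of tested genes rose and 5.55% fell.

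Without regard to the test, dKO values lay above all controls in 5 tested members (38.3% of tested genes) and below all controls in 6 (6.73%). The 6 that lay below were Serpina1a, Serpina1c, Serpina6, Serpinc1, Serpind1 and Serpinf2, all with a mean of at least 100 RPKM. Of the 14 members at that level 6 lay below and 3 were called lower, where 30.7% of the 430 tested genes at that level lay below all controls and 13.7% were called lower. At that level 0 members lay above all controls and none was called higher, where 17.7% of genes lay above and 8.6% were called higher. The median log2 change was -0.37 for these members and -0.12 for all genes at that level. The level was chosen after the values were seen, so these counts are a description. Serpina11, with a mean of 96.5 RPKM, lay above all controls and just missed the level. Serpina1a to Serpina1d are among the 14 and can share reads. All serpin transcripts together held 2.15%, 1.53% and 2.28% of the RPKM sum in control replicates 1, 2 and 3, and 1.62%, 1.83% and 1.53% in dKO replicates 1, 2 and 3. Control replicate 2 thus lay among the dKO libraries.

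**Figure D1:**
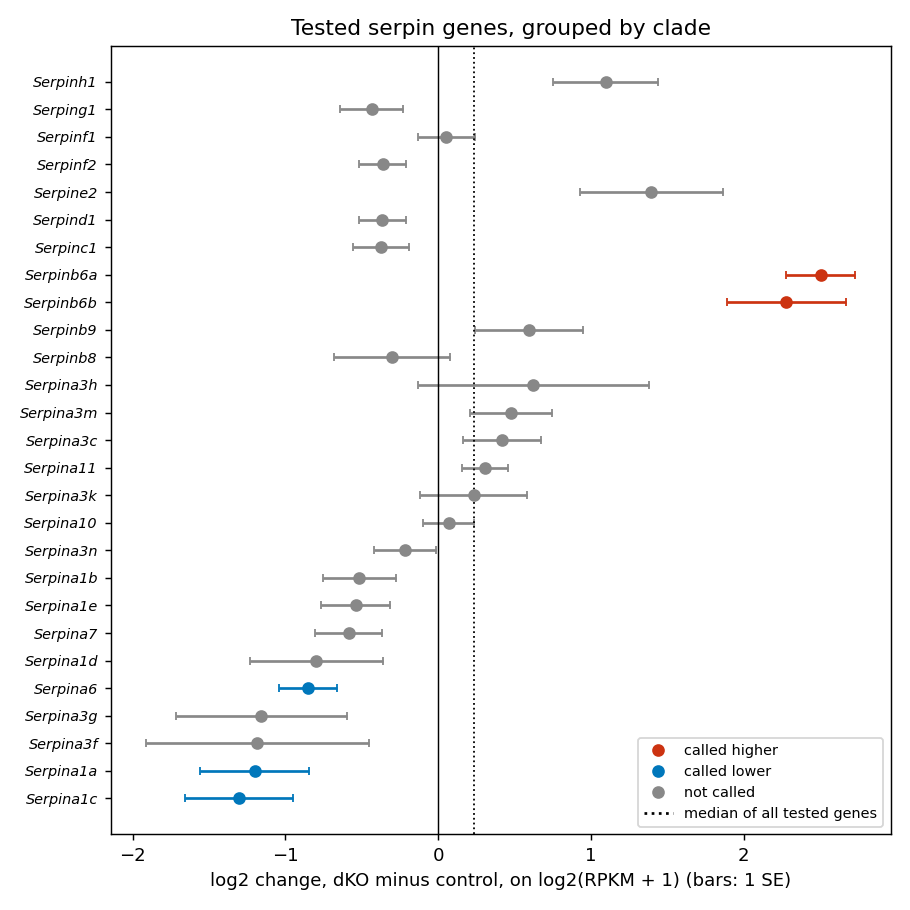
Log2 changes (dKO minus control, on log2(RPKM + 1), x axis) of the 27 tested serpin genes (y axis, ordered by clade), with bars of 1 SE. Called genes are coloured, and the dotted line is the median of all tested genes at 0.23. Serpinb6a at 2.50 and Serpina1c at -1.30 lie at the ends of the range.

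Serpina1a to Serpina1e are copies of the gene of antitrypsin, an inhibitor of neutrophil elastase, and mice carry several copies where humans have a single gene. What each copy inhibits was not measured here. Their coding sequences have 413 codons each and were identical at 96.3% to 98.5% of bases between copies in GENCODE M21. The stretch that encodes the reactive centre loop was less alike, with 86.7% to 94.4% identity. It is shown from the conserved hinge of the loop onwards, since it tells the copies apart and sets what each can inhibit. Capitals mark the P1 codon, codon 15 of the 30 shown, placed by its fixed distance from the hinge.
Serpina1a: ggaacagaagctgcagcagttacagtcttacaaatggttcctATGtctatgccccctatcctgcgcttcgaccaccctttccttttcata
Serpina1b: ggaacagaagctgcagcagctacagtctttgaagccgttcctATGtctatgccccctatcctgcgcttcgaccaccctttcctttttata
Serpina1c: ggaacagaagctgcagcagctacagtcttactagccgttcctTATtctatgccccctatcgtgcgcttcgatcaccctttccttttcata
Serpina1d: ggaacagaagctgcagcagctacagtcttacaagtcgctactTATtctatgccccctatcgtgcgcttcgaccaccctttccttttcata
Serpina1e: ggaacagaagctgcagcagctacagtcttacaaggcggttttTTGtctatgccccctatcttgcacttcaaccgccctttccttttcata
The P1 codon is ATG in Serpina1a and Serpina1b, TAT in Serpina1c and Serpina1d, and TTG in Serpina1e.

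The copies share enough sequence for reads to be split between them. Of the 50-base windows of each copy's transcripts, 51.4% in Serpina1a, 28.2% in Serpina1b, 73.3% in Serpina1c, 48.0% in Serpina1d and 34.6% in Serpina1e also occur in another serpin gene. Serpina1a and Serpina1c are the closest pair, and 69.4% of the windows of Serpina1c occur in Serpina1a. How the authors' counting treated such reads is not given in the sources used here, so values of single copies are uncertain.

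Serpina1c, with TAT as P1 codon, fell to 0.408 of its control mean. Its control libraries held 905, 498 and 972 RPKM, and its dKO libraries 385, 392 and 192 RPKM. Control replicate 2 was the lowest control and dKO replicate 3 the lowest library, and the groups did not overlap. The log2 change of -1.30 ± 0.35 (SE) had a limma adjusted p of 0.0359, which passed in 9 of 16 alternative fits and ranged from 0.00224 to 0.119 over them. These 16 are the alternatives that refit the genes one by one, without the stricter threshold of 0.01 and the minimum fold, which leave the p unchanged.

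Serpina1a, with ATG as P1 codon, fell alongside it to 0.429 of its control mean. Its values were 844, 394 and 783 RPKM in control and 340, 345 and 181 RPKM in dKO libraries. As for Serpina1c, control replicate 2 was lowest among controls and dKO replicate 3 lowest of all. The log2 change of -1.2 ± 0.36 (SE) had a limma adjusted p of 0.0489, and this passed in 4 of 16 alternative fits (0.00328 to 0.149).

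The other copies were not called. Serpina1b, the most abundant copy, went from 1021 ± 268 to 696 ± 48.7 RPKM (limma adjusted p = 0.146), Serpina1d from 231 ± 120 to 117 ± 15 RPKM (0.218) and Serpina1e from 82.0 ± 18.7 to 56.1 ± 13.5 RPKM (0.116). In each of these 3 copies control replicate 2 lay within the range of the dKO libraries or below it. Without control replicate 2 all 3 passed, with limma adjusted p of 0.03, 0.00376 and 0.0405. None of them passed without control replicate 1 (0.365, 0.468 and 0.252) or without control replicate 3 (0.343, 0.486 and 0.310). None passed with a dKO library left out either. Serpina1f was at 0 in all controls and at most 0.0158 RPKM in dKO.

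The copies were also summed, which lessens the effect of how reads were split among them but does not remove it, since each RPKM value is scaled to its own copy's length. The sum was 3345, 1765 and 3291 RPKM in control and 1591, 1647 and 1207 RPKM in dKO libraries. Every dKO library lay below every control, although control replicate 2 was close to the dKO libraries and far from the other controls. The sum's log2 change of -0.87 ± 0.29 (SE) did not pass (limma adjusted p = 0.0636). Without control replicate 2 it was -1.18 (limma adjusted p = 0.0131), and with any other library left out it did not pass (0.0957 to 0.194). The hepatocyte marker sum, most of it Alb, was also lowest among controls in control replicate 2 (45424 RPKM against 58310 and 58744). Alb, Apoa1, Apob, Ttr and Hnf4a were each lowest there among controls. Cps1 was instead highest there (436, 832 and 519 RPKM in control libraries), and Tat was not lowest (308, 359 and 400 RPKM). The part of these markers in the Serpina1 values was not tested.

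The makeup of the sum also shifted. Serpina1b held 36.6%, 40.7% and 34.0% of it in control and 43.1%, 45.5% and 54.2% in dKO libraries, without overlap. Serpina1a held 22.3% to 25.2% in control and at most 21.4% in dKO, and Serpina1c 27.1% to 29.6% and 15.9% to 24.2%. Serpina1d and Serpina1e overlapped between the groups, at 5.29% to 9.61% against 6.62% to 11.2% and 2.56% to 3.50% against 3.15% to 4.48%. These shares depend on how reads were assigned and are a description without a test.

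**Figure D2:**
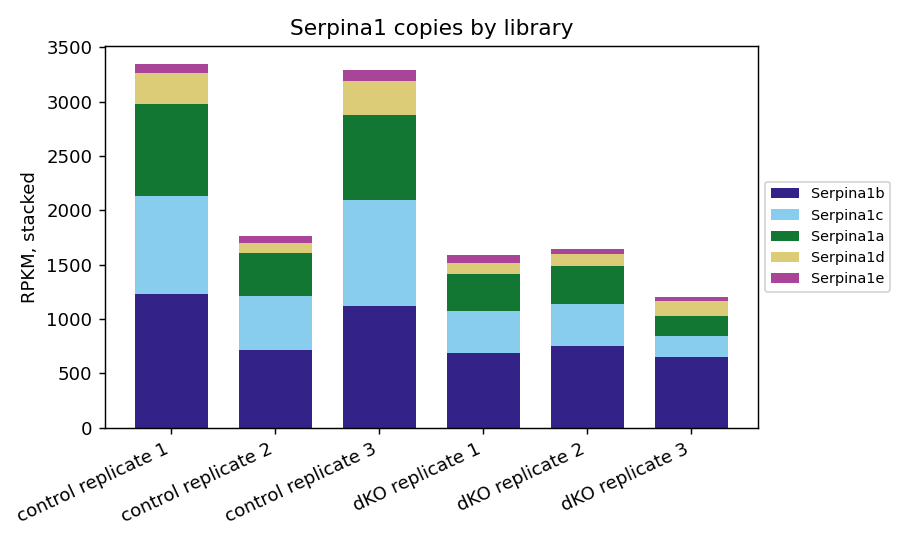
RPKM of the 5 expressed Serpina1 copies (stacked bars, y axis) in each of the 6 libraries (x axis). Control replicates 1 and 3 reach 3345 and 3291 RPKM, control replicate 2 reaches 1765, and the dKO libraries reach 1207 to 1647 RPKM.

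The Serpina3 copies descend from an antichymotrypsin-like gene and stand close together on chromosome 12 in RefSeq (GRCm38.p6). None of the 7 tested copies was called. Serpina3k, the contrapsin gene and the most abundant serpin in control liver, measured 1276, 777 and 1899 RPKM in control and 1453, 1940 and 1083 RPKM in dKO libraries. The groups overlapped, and the log2 change of 0.23 ± 0.35 (SE) had a limma adjusted p of 0.648, with -0.06 after median-ratio scaling. The sum of the 11 copies was 1708 ± 630 and 1925 ± 418 RPKM, with a log2 change of 0.22 ± 0.31 (SE) and a limma adjusted p of 0.617, and the sign turned to -0.07 after median-ratio scaling.

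Serpina3g, which encodes an inhibitor that stays inside cells, and its neighbour Serpina3f were highest in control replicate 2. Serpina3g measured 11.4, 22.2 and 3.57 RPKM in control and 3.47, 3.49 and 4.91 RPKM in dKO libraries (limma adjusted p = 0.182). This p was 0.0118 without control replicate 3 and 0.277 to 0.352 with any other library left out. Serpina3f measured 5.59, 15.4 and 0.992 RPKM and 1.99, 1.30 and 1.67 RPKM (0.279). Its limma adjusted p was 0.0235 without control replicate 3 and 0.405 to 0.511 with any other library left out. The summed neutrophil markers, mostly S100a8 and S100a9, were also highest in control replicate 2, at 107 RPKM against 35.8 to 75.3 RPKM elsewhere. Csf3r and Mpo were not highest there, and the part of these markers was not tested. Macrophage markers summed to 206 RPKM there, against 126 and 104 RPKM in the other controls and 179 to 263 RPKM in dKO libraries.

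For Serpina3k, Serpina3m, Serpina3c and Serpina3h, control replicate 2 was instead the lowest of the 6 libraries. Serpina3h, a transcribed pseudogene without a coding transcript in GENCODE M21, measured 6.47, 2.39 and 14.6 RPKM in control and 13.1, 20.4 and 3.76 RPKM in dKO libraries (limma adjusted p = 0.575). Serpina3m stood at 177 ± 46.9 and 247 ± 71.0 RPKM (0.218), Serpina3c at 12.4 to 27.7 and 22.8 to 28.8 RPKM (0.257), and Serpina3n, an acute phase gene, at 166 ± 36.5 and 142 ± 17.0 RPKM (0.455). Serpina3m held 20.1% of the summed copies in dKO replicate 3 and 9.62% to 12.2% in the other 5 libraries. The remaining copies Serpina3a, Serpina3b, Serpina3i and Serpina3j reached at most 0.472 RPKM in any library. Serpina3b was at 0 in all controls and at 0.0442, 0.0906 and 0.257 RPKM in dKO libraries.

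**Figure D3:**
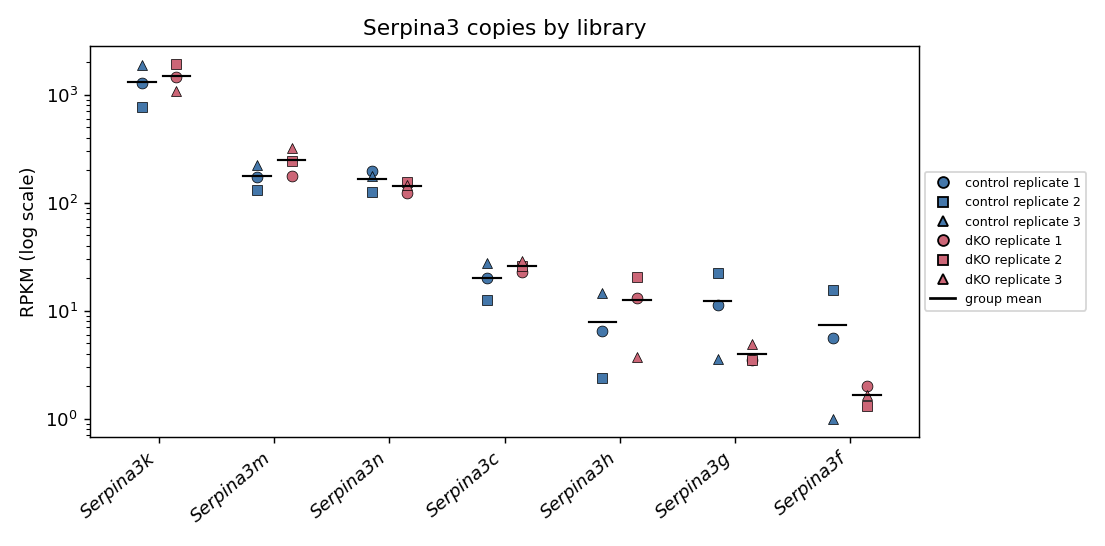
RPKM (log scale, y axis) of the 7 tested Serpina3 copies (x axis) in each library, with symbols for the replicates and lines for the group means. Control replicate 2 is highest for Serpina3g and Serpina3f, at 22.2 and 15.4 RPKM, and lowest for Serpina3k, at 777 RPKM.

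Of the clade A serpins that carry hormones, the glucocorticoid carrier gene fell in dKO liver. Serpina6, which encodes corticosteroid-binding globulin, measured 253, 333 and 241 RPKM in control and 175, 135 and 145 RPKM in dKO libraries. All 3 dKO libraries lay below all controls, and control replicate 2 was the highest here. It fell to 0.55 of its control mean, with a log2 change of -0.85 ± 0.19 (SE) and a limma adjusted p of 0.0184. The call was lost without control replicate 1 (0.0534) and without dKO replicate 2 (0.0564), and passed in 14 of 16 alternative fits. Serpina7, which encodes thyroxine-binding globulin and is X-linked, measured 33.2, 19.4 and 21.2 RPKM in control and 19.8, 13.9 and 13.9 RPKM in dKO libraries. Here dKO replicate 1 exceeded control replicate 2, and the log2 change of -0.58 ± 0.22 (SE) had a limma adjusted p of 0.0902. This p was 0.0368 with a replicate block, although the values gave no sign of a pairing by replicate number.

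Serpina5, the gene of protein C inhibitor, had the largest ratio between the groups of any member with reads in every library. It measured 0.0267, 0.0736 and 0.133 RPKM in control and 2.24, 2.13 and 1.33 RPKM in dKO libraries. With its single annotated transcript of 2162 bases and the estimated depths, this is about 0.97, 3.9 and 5.89 reads in control against 104, 98.1 and 69.0 reads in dKO libraries. No 50-base window of its transcript occurs in another serpin gene. The dKO mean was 24.5 times the control mean, but the mean over all libraries, 0.988 RPKM, fell just short of the filter. When no filter was applied, its log2 change of 1.41 ± 0.16 (SE) had a limma adjusted p of 0.0096, where 8.48% of 16907 genes rose and 0.858% fell. In RefSeq it lies between Serpina4-ps1 and Serpina3a, and Serpina3a stood at 0.274 ± 0.0865 and 0.257 ± 0.0532 RPKM.

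Serpina10, which encodes the inhibitor of factor Xa that needs protein Z, stood at 99.5 ± 17.7 and 103 ± 4.03 RPKM (limma adjusted p = 0.779). Serpina11, a liver gene of little-known function, measured 91.6, 74.3 and 93.3 RPKM in control and 102, 110 and 109 RPKM in dKO libraries. These groups did not overlap, but the log2 change of 0.31 ± 0.15 (SE) had a limma adjusted p of 0.169 and was 0.02 after median-ratio scaling. Serpina9 stood at 2.14 RPKM in control replicate 3 and at 0.242 to 0.810 RPKM in the other 5 libraries. Serpina12, the vaspin gene, reached at most 0.273 RPKM.

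None of the plasma serpins that restrain clotting, plasmin and complement was called. Serpinc1, the antithrombin gene, measured 962, 868 and 989 RPKM in control and 757, 782 and 640 RPKM in dKO libraries. Serpind1, which encodes heparin cofactor II, another thrombin inhibitor, measured 269, 286 and 281 RPKM and 217, 229 and 204 RPKM. Serpinf2, which encodes the plasmin inhibitor alpha 2-antiplasmin, measured 413, 381 and 405 RPKM and 305, 317 and 309 RPKM. In all 3 genes every dKO library lay below every control, as in 30.7% of the 430 tested genes averaging at least 100 RPKM. Control replicate 2 did not stand apart in these 3 as it did for the Serpina1 copies. The dKO means were 0.773, 0.776 and 0.776 of the control means, with limma adjusted p of 0.17, 0.116 and 0.125. With sample weights all 3 passed (0.0345, 0.0194 and 0.0147), where 5.43% of tested genes fell. In no other alternative fit did any of them pass.

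Serping1, the gene of C1 inhibitor, measured 397, 443 and 323 RPKM in control and 253, 349 and 259 RPKM in dKO libraries. The dKO replicate 2 library exceeded control replicate 3, and the limma adjusted p was 0.151. Serpinf1, which encodes pigment epithelium-derived factor and inhibits no protease, did not share this pattern, at 244 ± 35.3 and 253 ± 34.7 RPKM (limma adjusted p = 0.846).

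Clade B serpins guard the cell interior against leaked proteases. Of the 4 tested members 2 rose, where 17.8% of all tested genes did. After median-ratio scaling 2 rose as well, where 7.89% of tested genes did. Serpinb6a, whose protein inhibits cathepsin G and trypsin-like proteases in the cytoplasm, measured 6.59, 9.61 and 6.83 RPKM in control and 45.3, 36.3 and 65.6 RPKM in dKO libraries. The lowest dKO library was well above the highest control. Serpinb6a rose 6.39-fold, with a log2 change of 2.50 ± 0.22 (SE) and a limma adjusted p of 0.000713, and passed in 16 of 16 alternative fits with log2 changes from 2.24 to 2.70. It passed from rank 4517 to rank 948 among all symbols by group mean.

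Serpinb6b, a paralog of Serpinb6a in the same cluster on chromosome 13, measured 0.651, 1.11 and 2.11 RPKM in control and 8.02, 6.16 and 18.2 RPKM in dKO libraries. There was no overlap, and dKO replicate 3 held more than the other dKO libraries together. Serpinb6b rose 8.36-fold, with a log2 change of 2.28 ± 0.39 (SE) and a limma adjusted p of 0.0105 that passed in 16 of 16 alternative fits (0.000251 to 0.0464) but not at the stricter threshold of 0.01. Without dKO replicate 3 the log2 change was 1.86. Only 0.51% of the 50-base windows of Serpinb6a and 2.26% of those of Serpinb6b occur in another serpin gene, so these 2 rows can share few reads. The paralogs Serpinb6c, Serpinb6d and Serpinb6e were at 0 in every library.

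The other 2 tested members of clade B did not separate the groups. Serpinb9, the granzyme B inhibitor of cytotoxic and dendritic cells, measured 1.71, 6.16 and 2.50 RPKM in control and 4.53, 4.29 and 7.0 RPKM in dKO libraries. Its log2 change of 0.59 ± 0.35 (SE) had a limma adjusted p of 0.249. This p was 0.0205 without control replicate 2, which exceeded 2 of the dKO libraries. With any other library left out it was 0.252 to 0.563. The 7 lymphocyte markers summed to only 2.83 to 4.37 RPKM in any library, and none of them was tested. Serpinb8 measured 6.79, 4.25 and 4.21 RPKM in control and 4.88, 6.36 and 1.63 RPKM in dKO libraries (0.581), with a log2 change of -0.30 that was 0.14 without dKO replicate 3. Of the 22 clade B members that were not tested, 16 were at 0 in every library. They include Serpinb3a to Serpinb3d, the squamous cell carcinoma antigen genes, and Serpinb5, the maspin gene. Serpinb1a, an elastase inhibitor of leukocytes, had the highest level of the remaining 6, at 0.770 ± 0.441 and 0.387 ± 0.0920 RPKM.

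**Figure D4:**
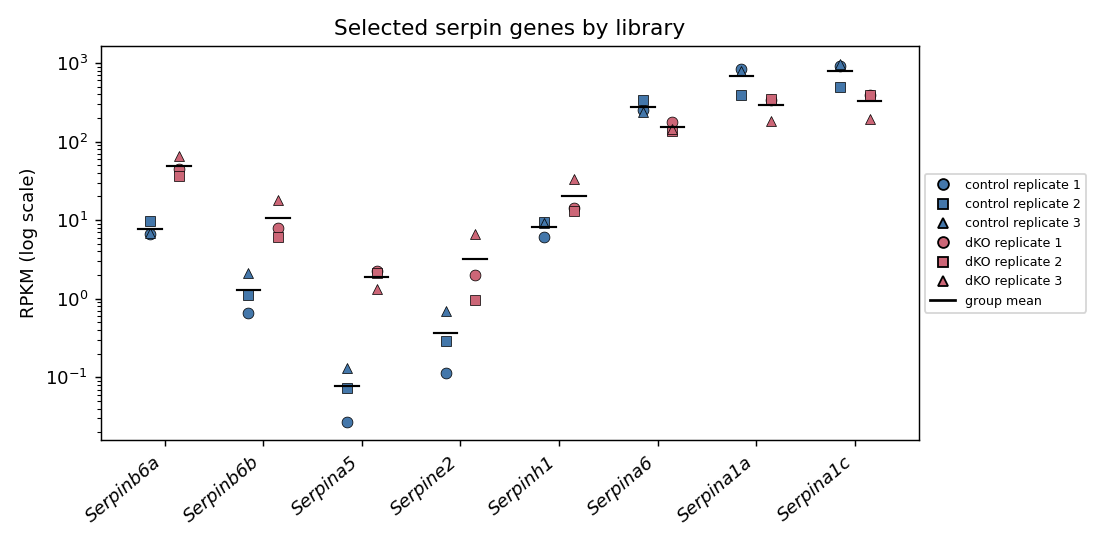
RPKM (log scale, y axis) of 8 serpin genes (x axis) in each library, with symbols for the replicates and lines for the group means. The 5 called genes are shown with 3 others, Serpina5, Serpine2 and Serpinh1, chosen after their values were seen. In each gene no dKO library falls within the range of the controls.

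Serpine2 of clade E, the gene of protease nexin 1, which inhibits thrombin and plasminogen activators, measured 0.112, 0.290 and 0.697 RPKM in control and 1.98, 0.959 and 6.58 RPKM in dKO libraries. No dKO value lay among the controls, but dKO replicate 3 held most of the dKO signal. The log2 change of 1.39 ± 0.47 (SE) had a limma adjusted p of 0.0728. Of the 14 alternative fits that kept Serpine2, it passed in 4. With a replicate block this p was 0.0192, although the values gave no sign of a pairing by replicate number. With sample weights it was 0.0216, where 37.4% of tested genes rose, and without dKO replicate 2 it was 0.0279. A pseudocount of 0.1 gave a log2 change of 2.60 (limma adjusted p = 0.0421). Without dKO replicate 3 the mean of Serpine2 fell under the filter. Serpine3 was at most 0.0341 RPKM.

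Serpinh1 encodes HSP47, a chaperone of the endoplasmic reticulum that binds procollagen and inhibits no protease. It measured 6.14, 9.49 and 9.19 RPKM in control and 14.4, 13.1 and 33.2 RPKM in dKO libraries. Again no dKO value lay among the controls, and dKO replicate 3 was the highest by far. The log2 change of 1.10 ± 0.34 (SE) had a limma adjusted p of 0.061. Serpinh1 passed in 4 of 16 alternative fits. With a replicate block this p was 0.0248, although the values gave no sign of a pairing by replicate number. It was 0.0483 with trend but without robust moderation, and 0.0176 with sample weights, where 37.4% of tested genes rose. Without dKO replicate 2 it was 0.047, and with any other library left out it was 0.063 to 0.177. Without dKO replicate 3 the log2 change was 0.69 (limma adjusted p = 0.063). The same library held the highest sums of stellate and fibroblast markers, 337 RPKM against 196 and 199 RPKM in the other dKO libraries, and of cholangiocyte and progenitor markers, 1011 RPKM against 513 and 359 RPKM. None of these markers was at 0 in all libraries, and their part in the values of Serpinh1, Serpine2, Serpinb6a and Serpinb6b was not tested.

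Clade I was nearly silent in liver. Serpini1, the neuroserpin gene, stood at 0.370 ± 0.109 and 0.675 ± 0.396 RPKM, and Serpini2 was at 0 in every library.

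Promoters of the members were searched because the cofactors YAP and TAZ act through TEAD factors. RefSeq promoters (GRCm38.p6, 300 bases each around the start) were found for 51 of 61 members. The letters GGAATG, the core bound by TEAD factors, occurred on either strand in 11 of the 60 promoters of these genes, which belong to 10 genes, and in 14.7% of all 32851 promoters. The 10 genes were Serpinb6a, Serpina5, Serpina7, Serpina12, Serpina3b, Serpina3i, Serpina3j, Serpinb1b, Serpinb12 and Serpinb9c. Of the called members with a promoter in the table (all but Serpina6) only Serpinb6a is among them, Serpina7 had a log2 change of -0.58, and Serpinb12 and Serpinb9c were at 0 in every library. Serpinb6b, which rose as well, has a promoter in the table without these letters. The palindromic motif of the hepatocyte factor HNF1 occurred in 0 members and in 3 of all promoters. A match is a description of these letters and not a binding site. The promoters of Serpinb6a (chr13:34002745-34003044, minus strand) and Serpina5 (chr12:104100863-104101162, plus strand) are shown with the match in capitals, which reads CATTCC on the gene's strand and begins 215 and 212 bases before the start.
Serpinb6a: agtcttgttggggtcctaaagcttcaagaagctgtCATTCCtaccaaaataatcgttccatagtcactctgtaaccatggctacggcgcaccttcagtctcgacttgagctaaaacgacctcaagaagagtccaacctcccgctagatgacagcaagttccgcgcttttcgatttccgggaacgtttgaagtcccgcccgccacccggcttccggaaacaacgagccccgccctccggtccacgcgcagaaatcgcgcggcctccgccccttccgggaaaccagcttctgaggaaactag
Serpina5: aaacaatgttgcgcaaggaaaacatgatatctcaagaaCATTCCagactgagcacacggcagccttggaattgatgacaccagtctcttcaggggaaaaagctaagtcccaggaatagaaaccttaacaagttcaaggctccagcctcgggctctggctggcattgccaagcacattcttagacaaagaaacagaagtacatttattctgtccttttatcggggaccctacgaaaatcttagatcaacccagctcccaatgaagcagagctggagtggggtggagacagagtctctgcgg

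Companion lists were read the same way, beside the 17.8% of all tested genes that rose and the 2.17% that fell. The median log2 change of all tested genes was 0.23. After median-ratio scaling 7.89% of tested genes rose, 5.55% fell and the median was -0.01. Of 35 target proteases and clearance genes, 26 were tested, 3 rose and 3 fell, with a median log2 change of -0.03 (1 rose and 5 fell after median-ratio scaling). Tmprss2, a membrane protease gene, rose with a log2 change of 1.01, and Hgfac, the gene of the activator of hepatocyte growth factor, fell by 1.2. The genes of neutrophil elastase (Elane), cathepsin G (Ctsg) and granzyme B (Gzmb) were too low to be tested.

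Of 30 other inhibitors, 26 were tested, 7 rose and 2 fell (6 rose and 2 fell after median-ratio scaling). Their median log2 change of 0.25 was close to the 0.23 of all tested genes, of which 17.8% rose and 2.17% fell. Wfdc2 and Slpi, which encode small secreted inhibitors, rose with log2 changes of 2.45 and 2.69, and Spint2, the gene of a membrane-bound Kunitz inhibitor, with 1.69. Agt, which encodes angiotensinogen, a serpin by structure that the symbol rule leaves out, fell by 0.60 on the log2 scale. It measured 407, 336 and 375 RPKM in control and 255, 254 and 225 RPKM in dKO libraries.

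Of 19 collagen clients and partners of Serpinh1, 16 were tested, 3 rose and 0 fell, with a median log2 change of 0.60 and 16 of 16 above 0, where 8420 of 11062 tested genes were above 0 (1 rose after median-ratio scaling). P4ha2, a prolyl hydroxylase subunit gene, rose with a log2 change of 1.14, Plod3, a lysyl hydroxylase gene, with 0.68 and Col4a1, a basement membrane collagen gene, with 0.92. All 23 acute phase genes were tested, and 4 rose and 4 fell, where 17.8% of tested genes rose and 2.17% fell. Their median log2 change was -0.41 (1 rose and 4 fell after median-ratio scaling). Lcn2 and Cp rose with log2 changes of 2.19 and 0.99, and Mt1 fell by 2.40.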

How the data were processed

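Liver RNA of 6 mouse samples was sequenced, and each sample's deposited table was analysed. The authors had aligned, counted and normalized the reads before deposit, on mm9 per the submitters' processing notes. Aligner, counter and annotation are not given in the sources used here. The unit of the deposited values was read as RPKM from the numbers themselves. Among 3973 symbols with a single GENCODE transcript, 74.6% to 80.6% of 219 to 364 low values per library fell within 0.15 of a whole read at the best step, which gave 16.9 to 24.5 M reads.

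A pseudocount of 1 was added before taking log2, and rows averaging under 1 RPKM over the 6 libraries were dropped. All other genes entered a limma 3.58.1 fit (R 4.3.3) with trend and robust moderation and without a block. A gene was called when its Benjamini-Hochberg adjusted p lay below 0.05. Members were rows whose symbol is Serpin, a clade letter from a to i, a number and an optional copy letter. One member below the filter is not reported here. All members that passed the filter were named, those called with every library's value, and from each companion list up to 3 called genes with the smallest p. The members and lists were chosen with earlier results of these data known. Alternatives changed the pseudocount, filter, moderation, scaling, sample weights, block, threshold, minimum fold, libraries and summing of copies. The fit was tested on simulated data. The design planned RefSeq proteins, and GENCODE M21 transcripts were used in their place. Promoters came from RefSeq. Both are on GRCm38, and no mm9 coordinate was used. Figures were drawn with Python 3.11.15 and matplotlib 3.10.9.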

Additional observations from a re-analysis of the deposited data

How the results depend on the processing

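Over the alternatives, 65 of 90 values of the 5 called genes stayed on their side of the threshold and 25 were weaker, with 0 reversed, and 22 of 394 values of genes not called became stronger. The count of members called higher (2 of 27) was 4 of 44 without a filter on low values, where 8.48% of all genes rose. It was 4 with a replicate block (13.7% of genes), 5 with sample weights (37.4%) and 1 at an adjusted p under 0.01 (4.43%). With a library left out it ran from 2 to 4, where 6.84% to 17.9% of genes rose. It reached 4 where control replicate 2 or dKO replicate 2 was absent (17.9% and 14.1% of genes). The count called lower (3) was 1 without a filter (0.858% of genes), 1 with quantile normalization (5.01%) and 9 with sample weights (5.43%). It was 0 at an adjusted p under 0.01 (0.443%). With the Serpina1 and Serpina3 copies each summed it was 1 of 17 (2.16%), and summing merges copies that were called. With a library left out it ran from 0 to 6, where 0.807% to 2.17% of genes fell. It was 0 without control replicate 1 (0.807%), 6 without control replicate 2 (2.17%) and 1 without each dKO replicate (1.16% to 1.56%). For other changes the cause was not tested. The values gave no sign of a pairing by replicate number. Deviations of libraries with the same number correlated at -0.08, -0.10 and -0.01, and not every library correlated best with its own number. The deviations were taken from the mean of 3 libraries in each group, so the correlations depend on one another and cannot exclude a pairing. With the replicate block 2 members were called lower, where 1.83% of all genes were. They were Serpina6 (limma adjusted p = 0.0385) and Serpina7 (0.0368), and Serpina1c (0.0528) and Serpina1a (0.0610) were not called.

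The log2 change of the summed Serpina1 copies ran from -0.37 with quantile normalization to -1.18, passed only with sample weights (-0.95, limma adjusted p = 0.00306) and without control replicate 2 (-1.18), and ran from -1.18 to -0.71 with a library left out. The summed Serpina3 copies changed sign under sample weights (-0.12), under scaling by median ratios (-0.068) or upper quartiles (-0.049), and without control replicate 2 (-0.071), and ran from -0.071 to 0.48 with a library left out. Signs of genes that were not called also turned. With sample weights these were Serpina3m (-0.079), Serpina3c (-0.0087), Serpina3k (-0.088), Serpinf1 (-0.066) and Serpinb8 (0.060). With median-ratio and upper-quartile scaling they were Serpina3k (-0.055 and -0.038), Serpina10 (-0.22 and -0.20) and Serpinf1 (-0.23 and -0.21). With a library left out Serpinb8 ran from -0.60 to 0.14, positive without dKO replicate 3, Serpina3k from -0.10 to 0.54 and Serpinf1 from -0.069 to 0.14, both lowest without control replicate 2 (Serpinf1 was also negative without dKO replicate 2, at -0.053), and Serpina10 from -0.0087 to 0.21, lowest without control replicate 1. Members below 1 RPKM rest on few reads, and depth limits what their values can show.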

Other observations

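The pseudogene row Serpina4-ps1, which the symbol rule leaves out, measured 1.45, 0.559 and 8.29 RPKM in control and 6.62, 15.7 and 1.94 RPKM in dKO libraries. Its order over the 6 libraries was close to that of Serpina3h, with control replicate 2 lowest and dKO replicate 2 highest in both rows, and the groups overlapped in both. Serpinb10-ps stayed at or below 0.272 RPKM.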
